A study of Mus musculus with 5 samples.

Results

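Chemokine receptors and the RGS proteins that limit their signalling were examined in natural killer (NK) cells, as 9 genes chosen by symbol. They comprised 5 receptor genes (Cxcr3, Cxcr4, Cxcr6, Ccr2 and Cx3cr1) and 4 RGS genes (Rgs1, Rgs2, Rgs3 and Rgs16), each matched to exactly 1 of 56691 listed gene IDs. All 9 were among the 30580 genes with enough counts to be tested. The cells came from mouse spleen and carried either a CRISPR knockout of Fli1, a transcription factor of the ETS family (3 libraries labelled Fli1 KO), or the control labelled NTC (2 libraries). No strain, age, culture condition, cytokine or guide sequence is given in the labels, and nothing says that the numbered libraries of a group came from separate animals.

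Chemokine receptors are seven-helix receptors that couple mainly to the inhibitory G protein and steer leukocytes along gradients of chemokine. Binding of a ligand loads the G protein alpha subunit with GTP, and the freed subunits drive calcium release, PI3 kinase and movement of the cytoskeleton. RGS proteins, the regulators of G protein signalling, speed up the hydrolysis of that GTP and so end the signal. In NK cells, Cxcr3 and Cxcr6 are known for recruitment to inflamed tissue and liver, Cxcr4 for retention in bone marrow, Ccr2 for exit towards inflamed sites, and Cx3cr1 as a receptor of mature circulating cells.

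Totals ranged from 4718390 to 5643791 counts per library, of which a single satellite-repeat gene, Gm10800, held 10.3% (NTC 1) to 18.98% (NTC 2). By chi-square per degree of freedom of raw counts, the NTC libraries differed more from each other than any other pair did. It was 10.8 between NTC 1 and NTC 2 and 2.14 to 3.48 between Fli1 KO libraries. Pairs of a Fli1 KO and an NTC library had 4.31 to 8.28. Gm10800 was kept in these values, and its part in them was not tested. The main results that move when either NTC library is left out are therefore given with values without it. In such a fit, spread is measured within Fli1 KO alone, so its p-values do not reflect how NTC libraries vary. Fli1 itself lay at 390, 320 and 361 CPM in Fli1 KO 1 to 3 and at 322 and 279 CPM in NTC 1 and 2, where CPM is the count of a gene relative to the TMM-adjusted library total. The groups overlapped (edgeR adjusted p = 0.641). This level does not test the knockout, because a transcript with a short frameshift is still counted, so directions rest on the labels. Of 13 NK markers, 13 lay over 3 times background, the density of counts on olfactory and vomeronasal receptor genes, which NK cells do not use. The same held for 3 of 13 T cell markers (Trac and the constant segments Trbc1 and Trbc2), 0 of 9 B cell, 2 of 12 monocyte and macrophage (Cd68 and Itgax), 0 of 9 neutrophil, 0 of 8 dendritic cell and 0 of 8 red cell markers, of which Camp, Hba-a1 and Hba-a2 were at 0 in at least 1 library.

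Of the 9 genes, Rgs1 alone was called, higher in Fli1 KO, by edgeR's quasi-likelihood test at an adjusted p under 0.05. In all genes tested, 0.458% were called higher, 0.0883% lower and 0.546% in either direction (140 higher and 27 lower). Scaled by library size only, the split was 92 higher and 71 lower. The groups did not overlap in 4 of the 9 genes, against 25.6% of all genes tested. Rgs1, Rgs2 and Rgs16 lay higher in every Fli1 KO library (11.9% of all genes, and 26.3% of tested genes over 3 times background, as these are) and Cxcr3 lay lower (13.7% and 7.8%). An unadjusted p under 0.05 was reached by 3 of the 9, against 8.94% of all genes. The 4 RGS genes all had positive log2 fold changes (Fli1 KO minus NTC), as did 47.6% of all genes tested and 70.5% of those over 3 times background, a class that holds all 4. Their median of 0.49 (0.39 without NTC 1 and 0.64 without NTC 2) compares with −0.02 for all genes and 0.11 for that class. The 4 receptors over 3 times background, which leaves out Cx3cr1, had a median of −0.60 (−0.75 without NTC 1 and −0.24 without NTC 2). Over all 5 receptors it was −0.15. With library size alone the all-gene median was −0.14, that of the RGS genes 0.37 and that of the 4 receptors −0.72, and Rgs3 turned negative. Calls of these genes in other fits read against the share of all genes called there. This share was 0.543% with the size factors of DESeq2, 0.533% with library size alone, 0.713% with upper-quartile factors and 0.558% without a filter. It was 1.63% of the 11015 genes to which DESeq2 gave an adjusted p, 0.569% with limma-voom, 3.01% with a replicate block, 1.04% above a minimum of 5 CPM and 2.58% among genes over 3 times background. Leaving out 1 library gave 0.164% (Fli1 KO 1), 0.824% (Fli1 KO 2), 0.214% (Fli1 KO 3), 2.67% (NTC 1) and 0.415% (NTC 2). Because this is RNA of whole samples, fewer cells of a type and less RNA per cell cannot be told apart in any of these values.

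**Figure D1:**
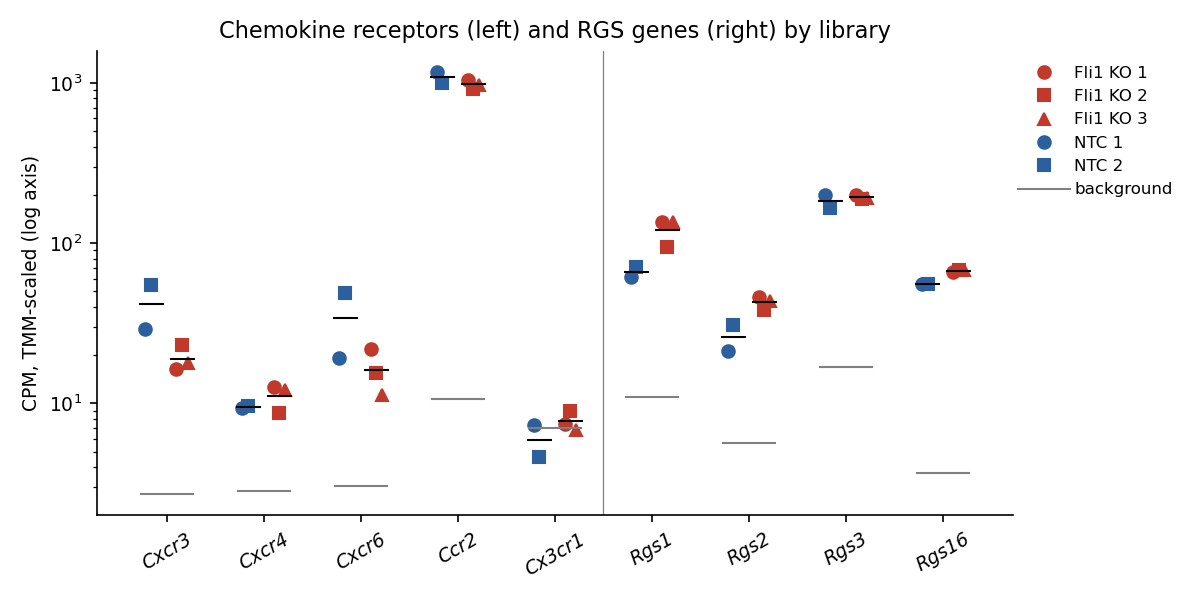
CPM (vertical log axis) of the 5 receptor and 4 RGS genes in each of the 5 libraries, blue for NTC and red for Fli1 KO, with black bars for group means and grey bars for the background expected from each gene's exon length. Ccr2 stands between 921 and 1171 CPM, Cx3cr1 sits on its background bar, and all Fli1 KO points of Rgs1 and Rgs2 lie above both NTC points.

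Proximal promoters are shown for Cxcr3 and Rgs2, the genes with a window whose groups were separated by the largest difference in each direction. The windows (RefSeq, GRCm38.p6) run from 250 bases before to 50 after an annotated start, and those of 8 of the 9 genes were used (not Rgs1). Capitals mark the ETS core GGAA on either strand (TTCC where it lies on the other strand), the letters that ETS factors such as Fli1 recognise.
Cxcr3, chrX:101734098-101734397, minus strand: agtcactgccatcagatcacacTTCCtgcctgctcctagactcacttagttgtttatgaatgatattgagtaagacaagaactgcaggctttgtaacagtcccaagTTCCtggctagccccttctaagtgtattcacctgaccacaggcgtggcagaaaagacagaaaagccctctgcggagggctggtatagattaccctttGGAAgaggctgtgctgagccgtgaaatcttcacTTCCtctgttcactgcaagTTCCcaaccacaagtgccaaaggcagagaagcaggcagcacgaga
Rgs2, chr1:144004100-144004399, minus strand: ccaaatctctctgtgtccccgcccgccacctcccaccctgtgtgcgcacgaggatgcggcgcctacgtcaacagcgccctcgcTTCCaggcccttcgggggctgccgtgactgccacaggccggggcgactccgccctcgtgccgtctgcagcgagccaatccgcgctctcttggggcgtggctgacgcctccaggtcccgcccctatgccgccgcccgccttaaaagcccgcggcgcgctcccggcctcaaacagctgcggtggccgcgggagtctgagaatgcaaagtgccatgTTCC
The Cxcr3 window holds 5 core matches and that of Rgs2 holds 2. Among 32851 mouse promoter windows of this length, 28.6% hold at least 5 and 84.6% hold at least 2. The longer ETS form CCGGAA occurs in 14.9% of all windows and in none of the 9 windows of these genes (Rgs3 has 2 starts). Nor did any of them hold the AP-1 site TGANTCA (7.81% of all windows), the cyclic AMP element TGACGTCA (1.79%) or the EGR site GCGTGGGCG (0.612%), searched on both strands. These are matches of letters, and no binding was measured.

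Rgs1 encodes a GTPase-activating protein that limits the response of lymphocytes to chemokines (ENSMUSG00000026358, GRCm38 chromosome 1, 144242296 to 144249242, minus strand). It had 668, 531 and 670 counts in Fli1 KO 1 to 3 and 353 and 339 in NTC 1 and 2. Scaled, these were 134.8, 94.7 and 135.0 CPM against 61.2 and 70.8 CPM. Every Fli1 KO library lay above both NTC libraries, with Fli1 KO 2 the lowest of the 3. From a mean of 66.0 ± 6.80 CPM (SD, n = 2) in NTC, Rgs1 rose 1.84-fold to 121 ± 23.2 CPM (SD, n = 3) (log2 fold change 0.88, SE 0.16, 95% interval 0.55 to 1.21, edgeR adjusted p = 0.00695). The call ended without Fli1 KO 1 (0.81, adjusted p = 0.17) and without Fli1 KO 3 (0.81, adjusted p = 0.17). Of 14 alternatives 12 called it, with adjusted p from 4.95e-09 (the replicate block, a fit with little left to measure spread) to 0.17.

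Rgs2 encodes a related protein with a preference for the Gq class of alpha subunits (ENSMUSG00000026360, GRCm38 chromosome 1, 143999338 to 144004161, minus strand). It lay at 46.2, 38.3 and 43.7 CPM in Fli1 KO 1 to 3 and at 21.3 and 30.9 CPM in NTC 1 and 2. The groups did not overlap, and NTC 1 was the lowest library. The log2 fold change was 0.72 (SE 0.17, 95% interval 0.37 to 1.07), 42.8 ± 4.02 CPM (SD, n = 3) against 26.1 ± 6.78 CPM (SD, n = 2), and it missed the threshold (edgeR adjusted p = 0.0586). It was called in 6 of 14 alternatives, with adjusted p from 0.000119 (the replicate block) to 0.431. The value rested on which NTC library was used: 0.49 without NTC 1 (adjusted p = 0.226) and 1.01 without NTC 2 (adjusted p = 0.00272).

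Rgs16 encodes an RGS protein induced in activated lymphocytes (ENSMUSG00000026475, GRCm38 chromosome 1, 153740349 to 153745468, plus strand). It stood at 66.0, 67.6 and 67.9 CPM in Fli1 KO and at 55.5 and 55.8 CPM in NTC. The groups were tight and did not overlap, but the difference was small, with a log2 fold change of 0.27 (95% interval −0.00351 to 0.55, edgeR adjusted p = 0.567). The antisense gene Gm28513 shares 236 exonic bases with Rgs16, and the strand setting of the counting is not given, so reads of the pair may be mixed. Rgs3, a broadly acting RGS gene with several isoforms (ENSMUSG00000059810, GRCm38 chromosome 4, 62559847 to 62704001, plus strand), stood at 200.5, 189.6 and 192.2 CPM in Fli1 KO and at 199.0 and 164.8 CPM in NTC. These overlapped, and the log2 fold change of 0.09 had a 95% interval of −0.19 to 0.37 (edgeR adjusted p = 0.902). That sign is not fixed, being −0.04 with library size alone and −0.03 without NTC 2.

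**Figure D2:**
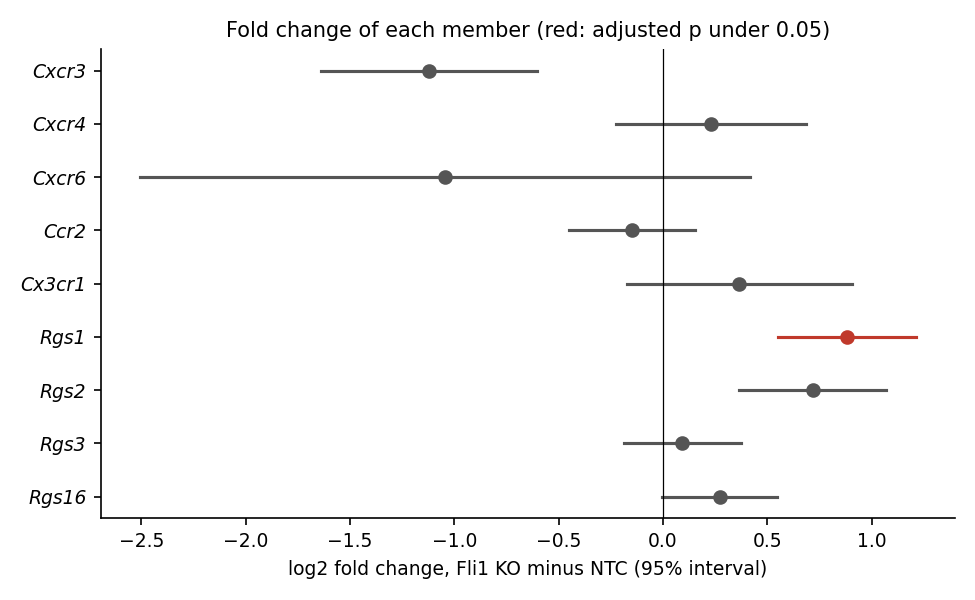
Log2 fold change of Fli1 KO minus NTC (horizontal axis) of the 9 genes from the edgeR fit, with 95% intervals as lines, red where the adjusted p is under 0.05. Rgs1 at 0.88 is the red point, the intervals of Rgs2 and Cxcr3 also lie on one side of 0 before adjustment over all genes, and that of Cxcr6 is the widest, from −2.51 to 0.42.

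Cxcr3, the receptor for CXCL9, CXCL10 and CXCL11 (ENSMUSG00000050232, GRCm38 chromosome X, 101731535 to 101734269, minus strand), had the largest fold change of the receptors with all 5 libraries, though that of Cxcr6 was larger without NTC 1 or without Fli1 KO 1. It had 81, 129 and 88 counts in Fli1 KO 1 to 3 and 168 and 262 in NTC 1 and 2, or 16.3, 23.0 and 17.7 CPM against 29.1 and 54.7 CPM. All Fli1 KO libraries lay below both NTC libraries, and NTC 2 stood 1.88 times above NTC 1. The NTC mean of 41.9 ± 18.1 CPM (SD, n = 2) was 2.20 times the Fli1 KO mean of 19.03 ± 3.52 CPM (SD, n = 3). The log2 fold change of −1.12 (SE 0.24, 95% interval −1.64 to −0.60) missed the threshold in edgeR (adjusted p = 0.0677). DESeq2 called it (adjusted p = 0.00678), as did 5 other alternatives of the 14, among them the fit without NTC 1. The highest adjusted p, 0.404, came from the edgeR fit without Fli1 KO 1. Without NTC 2 the value was −0.60, and without NTC 1 it was −1.50.

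Cxcr6, the receptor for the membrane-bound chemokine CXCL16 (ENSMUSG00000048521, GRCm38 chromosome 9, 123806475 to 123811760, plus strand, within the span of Fyco1 on the other strand but sharing no exonic base with it), lay at 21.99, 15.5 and 11.3 CPM in Fli1 KO and at 19.1 and 48.9 CPM in NTC. The groups overlapped, because Fli1 KO 1 exceeded NTC 1, and NTC 2 stood apart from the other 4 libraries. The log2 fold change of −1.04 therefore had a wide 95% interval, −2.51 to 0.42 (edgeR adjusted p = 0.678). Without NTC 2 it was −0.22 and without NTC 1 −1.57. With a lone NTC library these fits cannot measure how NTC libraries vary.

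**Figure D3:**
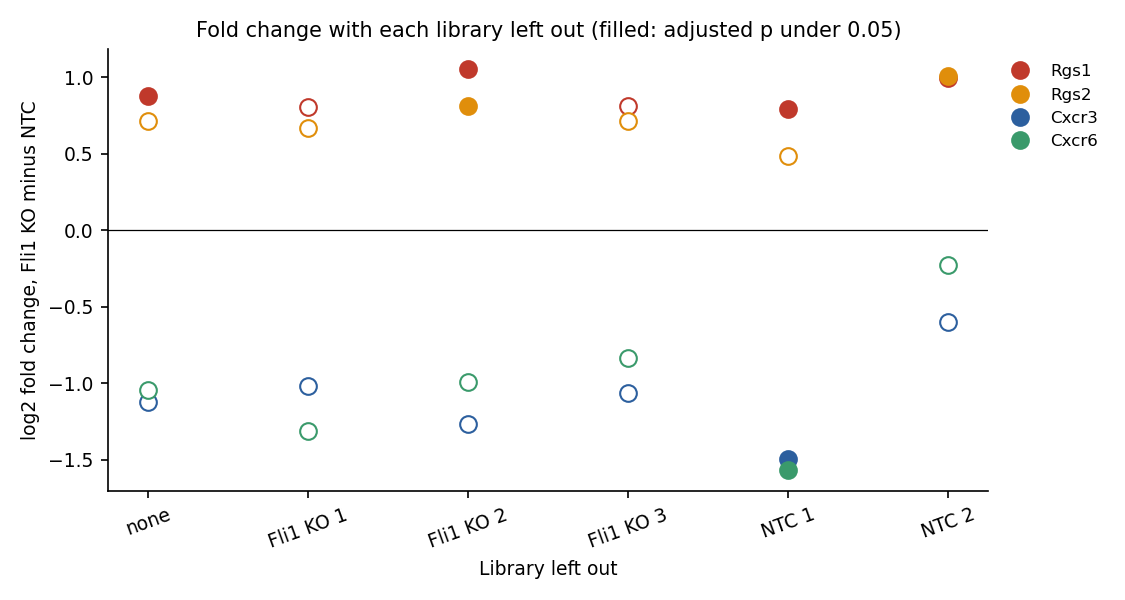
Log2 fold change of Fli1 KO minus NTC (vertical axis) for Rgs1, Rgs2, Cxcr3 and Cxcr6 with no library or 1 library left out (horizontal axis), filled where the adjusted p is under 0.05. Rgs1 stays between 0.80 and 1.05, while Cxcr6 runs from −1.57 without NTC 1 to −0.22 without NTC 2.

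Markers of ILC1, innate lymphocytes close to NK cells that carry Cxcr3 and Cxcr6, varied alongside these receptors only in part. Their summed level over 9 genes was 412 to 426 CPM in Fli1 KO, 488 CPM in NTC 1 and 733 CPM in NTC 2. Of the 9, 6 lay over 3 times background and none was at 0 in any library. All 9 had negative log2 fold changes, with a median of −0.76 (−0.86 without NTC 1 and −0.18 without NTC 2, where Il7r and Itga1 turned positive). Values were positive in 47.6% of all genes tested and in 70.5% of those over 3 times background. Il7r, the interleukin-7 receptor chain, stood at 20.2, 25.3 and 21.4 CPM in Fli1 KO, 20.1 CPM in NTC 1 and 117 CPM in NTC 2, and Tmem176b at 13.1, 9.63 and 11.1 CPM, 15.3 CPM and 38.4 CPM. Both were high in NTC 2 only among these 5 libraries, as Cxcr6 was. So was Ltb, at 88.2, 90.8 and 82.2 CPM in Fli1 KO, 90.7 CPM in NTC 1 and 160 CPM in NTC 2. Itga1, the integrin CD49a that defines ILC1, did not share this: it lay at 150 CPM in NTC 1, 167 CPM in NTC 2 and 153 to 159 CPM in Fli1 KO. The death ligand gene Tnfsf10 (log2 fold change −0.76, edgeR adjusted p = 0.00551) and Inpp4b, a phosphoinositide phosphatase gene (−0.61, adjusted p = 0.0261), were called lower, as were 0.0883% of all genes tested. In the NTC libraries Tnfsf10 lay at 67.6 and 72.1 CPM and Inpp4b at 120 and 130 CPM, so neither shared the rise in NTC 2. Without NTC 2 only Tnfsf10 of the 9 was called (−0.70, adjusted p = 0.0332), and Inpp4b had an adjusted p of 0.196. Summed levels of the 13 NK markers were 9381 to 13849 CPM in Fli1 KO, 10035 CPM in NTC 1 and 6801 CPM in NTC 2, sums to which Gzma gave the most. Of these markers 8 had positive and 5 negative values. Gzma, the granzyme A gene, was at 3384 and 2089 CPM in NTC 1 and 2, whereas Klrk1, which encodes the activating receptor NKG2D, was at 387 and 394 CPM, above its 323 to 327 CPM in Fli1 KO. The part of ILC1 or NK marker content in the Cxcr3 and Cxcr6 values was not tested.

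**Figure D4:**
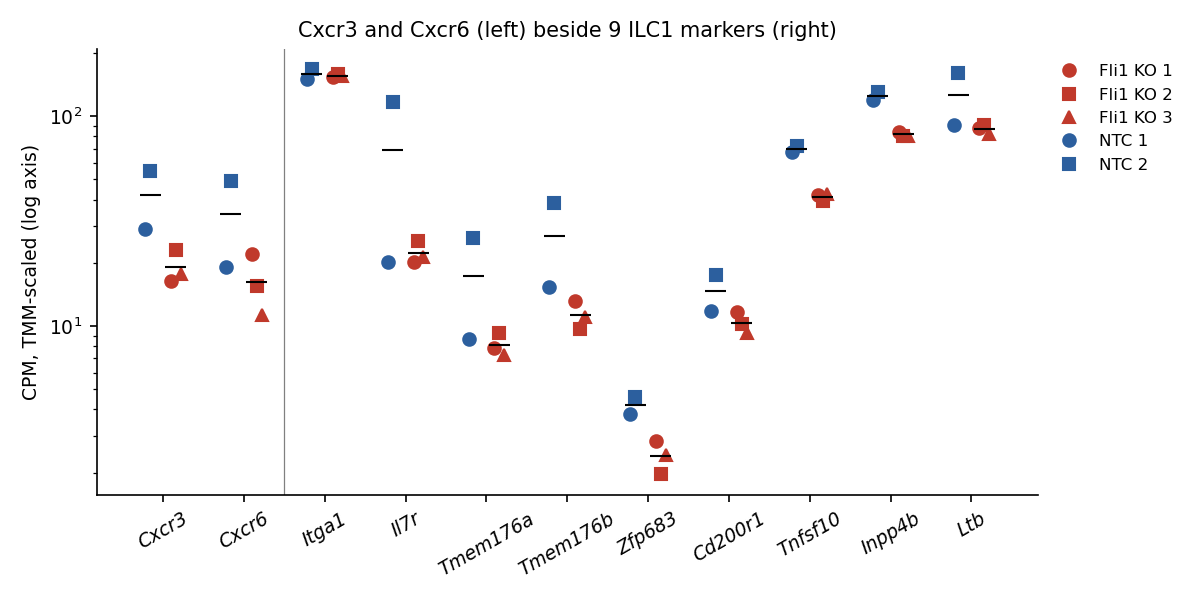
CPM (vertical log axis) of Cxcr3 and Cxcr6 beside the 9 ILC1 markers in the 5 libraries, blue for NTC and red for Fli1 KO, with bars for group means. NTC 2 (blue square) is the highest library for Cxcr6 at 48.9 CPM and for Il7r at 117 CPM, whereas the 5 values of Itga1 lie together.

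Ccr2, the receptor for CCL2 (ENSMUSG00000049103, GRCm38 chromosome 9, 124101950 to 124113557, plus strand), was the most abundant of the 9. It lay at 1039, 921 and 973 CPM in Fli1 KO and at 1171 and 997 CPM in NTC, and the groups overlapped. Its log2 fold change of −0.15 had a 95% interval of −0.45 to 0.15 (edgeR adjusted p = 0.828). How reads with several positions were counted is not given, which leaves the level of Ccr2, a gene with close relatives, uncertain. Monocytes also use Ccr2. Of their 12 markers, Itgax (210 to 321 CPM, a gene that NK cells also express) and Cd68 (10.2 to 15.7 CPM) lay over 3 times background and the other 10 did not, among them Csf1r at 4.60 to 9.07 CPM and Lyz2 at 0.605 to 1.91 CPM. The part of such cells in the Ccr2 level was not tested.

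Cxcr4, the receptor for CXCL12 (ENSMUSG00000045382, GRCm38 chromosome 1, 128588199 to 128592293, minus strand), stood at 12.7, 8.74 and 12.1 CPM in Fli1 KO and at 9.36 and 9.61 CPM in NTC, from 46 to 63 counts a library. The groups overlapped, and the log2 fold change of 0.23 had a 95% interval of −0.23 to 0.69 (edgeR adjusted p = 0.822). Cx3cr1, the fractalkine receptor (ENSMUSG00000052336, GRCm38 chromosome 9, 119901616 to 120069879, minus strand), lay at 7.46, 8.92 and 6.85 CPM in Fli1 KO and at 7.28 and 4.60 CPM in NTC. Its mean was 0.993 times the background of 7.07 CPM expected from 4505 exonic bases, so expression was not detectable above background at this depth, and its fold change is not read. The other 8 genes lay between 3.70 times background (Cxcr4) and 96.2 times (Ccr2).

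Levels were ordered per kilobase of exon, a scale that assumes an equal density of counts over exons. The libraries were made with a probe-capture kit, so the assumption may fail, and the order between genes was not tested. In NTC, Ccr2 led at 160 ± 18.3 CPM per kb (SD, n = 2), and its lowest library (136) lay above the highest of Cxcr3 (31.6). Cxcr3 (24.2 ± 10.5), Rgs16 (23.8 ± 0.0896), Cxcr6 (17.6 ± 10.9), Rgs3 (16.8 ± 2.24), Rgs1 (9.50 ± 0.979), Rgs2 (7.20 ± 1.87) and Cxcr4 (5.25 ± 0.0967) followed. Each of these overlapped its neighbour over the 5 libraries. Cx3cr1 came last at 1.32 ± 0.422 CPM per kb and below every value of Cxcr4. In Fli1 KO, Rgs1 stood at 17.5 ± 3.34 CPM per kb, beside Rgs3 at 18.0 ± 0.529, and Cxcr3 at 10.99 ± 2.03, beside Rgs2 at 11.8 ± 1.11 (SD, n = 3).

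In a search over 7662 genes (mean 20 CPM or more), those whose log2 CPM followed Ccr2 most closely over the 5 libraries were Fem1b and Samhd1 (Pearson r = 0.998 for each), and for Rgs3 they were 1190002N15Rik and Med12 (r = 0.998 for each). Over only 5 libraries these genes were not alone: of the 7662, 62 genes exceeded an r of 0.95 with Ccr2 and 192 with Rgs3.

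The remaining chemokine receptors were mostly at background, with 2 of 19 over 3 times background. Ackr2, a scavenger receptor at 0.706 times background, had the smallest p (adjusted p = 0.468). The median of 18 tested was −0.16.

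Of 16 further RGS genes the median was −0.02, and 3 lay over 3 times background. Rgs14, which also binds RAS and RAP proteins, had the highest mean CPM (per kilobase Rgs19 was higher, at 8.69 against 7.63 times background) and lay at 52.9, 46.2 and 55.0 CPM in Fli1 KO and 55.5 and 44.3 CPM in NTC (adjusted p = 0.970). Rgs11 had the smallest p, at 34.3 and 19.4 CPM in NTC and 48.6, 47.3 and 41.3 CPM in Fli1 KO, a log2 fold change of 0.75 (SE 0.19) with an edgeR adjusted p of 0.0844. Rgs11 shares 138 exonic bases with Arhgdig on the other strand, so reads of that pair may also be mixed. Rgs13, Rgs21 and Rgs18, which lie near Rgs1 and Rgs2 on chromosome 1 (starts at 144138654, 144516648 and 144752683), stood at 1.27, 1.02 and 2.61 times background, with log2 fold changes of 0.06, 0.22 and −0.39 that were not called.

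**Figure D5:**
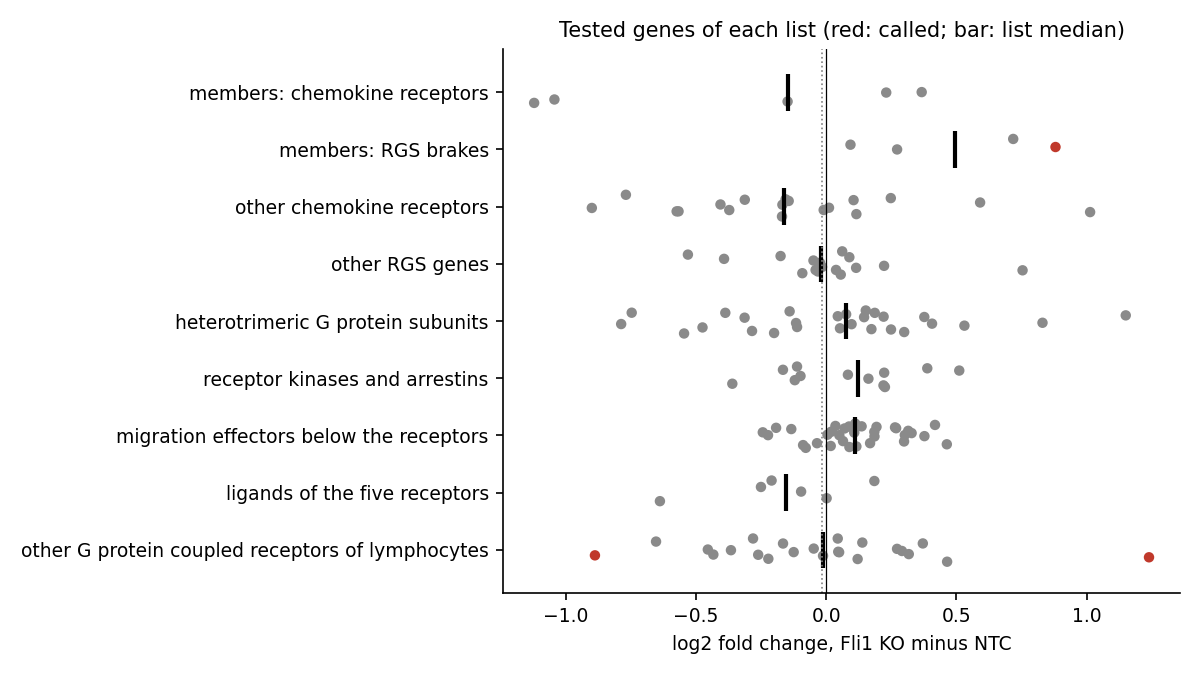
Log2 fold change of Fli1 KO minus NTC (horizontal axis) for each tested gene of the receptor and RGS sets and of 7 related lists, red where called, with a bar at each list's median and a dotted line at the median of all genes tested (−0.02). Outside Rgs1, the red points are Lpar6 at −0.89 and Ltb4r1 at 1.24.

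Below the receptors, the G protein subunits (27 tested, median 0.08) included Gnas, the stimulatory alpha subunit, with the highest mean CPM of the list at 433 ± 83.0 CPM (SD, n = 2) in NTC and 493 ± 68.8 CPM (SD, n = 3) in Fli1 KO. Per kilobase of exon Gnai2, an inhibitory alpha subunit gene, was higher, at 69.5 times background against 26.7 times for Gnas. Gng11, a gamma subunit gene, had the smallest p (2.43 and 2.92 CPM in NTC, 5.04 to 6.86 CPM in Fli1 KO, edgeR adjusted p = 0.140). Its mean over the 5 libraries was 3.21 times background (1.44 CPM), and it passed 3 times background through the Fli1 KO libraries. Among 12 receptor kinases, arrestins and related genes (median 0.12), Grk2, which marks active receptors for arrestin, stood at 355 ± 41.2 CPM (SD, n = 2) and 414 ± 24.1 CPM (SD, n = 3). Arrb1, the beta-arrestin 1 gene, had the smallest p, at 355, 325 and 349 CPM in Fli1 KO and 267 and 215 CPM in NTC (log2 fold change 0.51, adjusted p = 0.145). Of 34 migration effectors 27 had positive values (median 0.11). Tln1, which activates integrins, had the highest mean CPM (1123 ± 204 in NTC and 1193 ± 87.8 in Fli1 KO), although per kilobase Coro1a, a coronin gene, was higher (153 against 75.7 times background), and Wipf1, a partner of the actin regulator WASP, had the smallest p (0.46, adjusted p = 0.235). Of 10 ligand genes of the 5 receptors 0 lay over 3 times background. Cxcl12, with the highest mean CPM, stood at 0.864 times background and Cxcl9 at 1.14 times, and Cx3cl1 had the smallest p (adjusted p = 0.589).

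Across these 6 lists, edgeR called 0 of 113 tested genes, against 0.546% of all genes, with 17 at an unadjusted p under 0.05 (8.94% of all genes tested), and DESeq2 and limma-voom also called 0. The positive medians of the subunits, kinases and effectors lay near that of all 7605 tested genes over 3 times background, 0.11. That class holds only 13 of the 27 subunits, 10 of the 12 kinases and 28 of the 34 effectors, so the sets compared are not alike. With library size alone the medians of these 3 lists turned negative (−0.0524, −0.00333 and −0.0195). They were 0.24, 0.20 and 0.23 without NTC 1 and −0.0229, 0.0249 and 0.0210 without NTC 2.

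Among 23 other G protein coupled receptors of lymphocytes (median −0.01), 1 was called higher and 1 lower. Of all genes tested, 0.458% were called higher and 0.0883% lower. Ltb4r1, the high-affinity receptor for leukotriene B4, rose from 6.07 and 4.39 CPM in NTC to 14.7, 11.6 and 11.3 CPM in Fli1 KO, by 1.24 on the log2 scale (SE 0.24, edgeR adjusted p = 0.0138). The mean of Ltb4r1 over the 5 libraries was 4.39 times background (2.19 CPM). It passed 3 times background through the Fli1 KO libraries, with means of 12.5 CPM there and 5.23 CPM in NTC. Lpar6, a lysophosphatidic acid receptor gene, fell from 49.6 and 70.2 CPM to 34.1, 29.3 and 33.5 CPM (−0.89, SE 0.16, adjusted p = 0.00551). It lies within Rb1 on the other strand and shares 408 exonic bases with it, so reads of the pair may be mixed. Neither call held in every fit with 1 library left out: Ltb4r1 had adjusted p = 0.184 without Fli1 KO 1 and 0.0869 without NTC 2 (0.000608 without NTC 1), and Lpar6 0.0911 without Fli1 KO 1, 0.0978 without Fli1 KO 3 and 0.159 without NTC 2, where its value was −0.61 (−1.10 without NTC 1, adjusted p = 2.1e-07). Gpr171 was the most abundant receptor of this list, at 104 and 106 CPM in NTC and 154, 137 and 143 CPM in Fli1 KO (0.46, adjusted p = 0.167). The egress receptor gene S1pr1 lay at 6.05 to 13.6 CPM (adjusted p = 0.592) and S1pr5 at 9.82 to 17.3 CPM (adjusted p = 0.981). Their means were 2.06 and 3.55 times background, so S1pr1 did not reach 3 times background.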

How the data were processed

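RNA was measured in 5 libraries of mouse spleen NK cells, 3 labelled Fli1 KO and 2 labelled NTC. Libraries were made from 10 ng of column-purified RNA with a probe-capture kit, per the labels' protocols. The submitters' processing notes name FastQC 0.12.0, Trimmomatic 0.39, STAR 2.7.11 and mm10. Neither the counting tool nor its use of strand and annotation is given in the sources read here. The table holds whole counts per gene, deposited by the authors without scaling.

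Symbols came from the gene name table (52073 of 56691 IDs), and coordinates and exon lengths from GENCODE M21 on GRCm38. Genes passing filterByExpr (minimum 10 counts) were fitted with edgeR 4.0.16 in R 4.3.3 (TMM factors, robust quasi-likelihood test, Benjamini-Hochberg over all genes tested), and called at an adjusted p under 0.05. Intervals are 95%, from the fitted SE and each gene's degrees of freedom. Background is the count density on 1455 olfactory and vomeronasal receptor genes (5432.638 kb), scaled to exon length. Background and the values per kilobase assume an equal density over genes, which was not tested. P-values reflect only how these libraries vary, which may be technical. Alternatives were other scaling factors, filters, DESeq2 1.42.0, limma-voom (limma 3.58.1), a replicate block and each library left out. Where 1 NTC library remains, it is assumed to vary like the Fli1 KO libraries. A fit on genes over 3 times background was added after seeing the data. Named are the 9 genes, and per further list the called genes (up to 4), or else the one with the smallest p, and the gene with the highest mean CPM. The result of 1 gene that this rule names is not reported here. S1pr1, S1pr5, Rgs13, Rgs21, Rgs18 and the marker genes are named besides. The genes and lists were chosen with earlier results of these data known.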

Additional observations from a re-analysis of the deposited data

How the results depend on the processing

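Leaving out 1 library at a time gave 49 to 877 called genes (46 to 703 higher and 3 to 174 lower), 0 to 3 of the 9 genes and 0 to 10 genes of the 7 further lists. The numbers are lowest without Fli1 KO 1 and highest without NTC 1, where a lone NTC library is taken to vary like the Fli1 KO libraries. The cause was not tested. Without a filter, 295 genes were called (239 higher and 56 lower) and 3 of the 9. With library size alone 92 were called higher, 71 lower and 2 of the 9, and among genes over 3 times background 59 were lower. Size factors of DESeq2, upper-quartile factors, DESeq2 and limma-voom each called 2 of the 9, and DESeq2 1 gene of the further lists, giving no adjusted p for Ltb4r1. Rgs1 was called under each of these scalings, filters and tools, and the second gene was Cxcr3 (size factors, library size alone, DESeq2) or Rgs2 (upper-quartile factors, limma-voom). Without a filter both were added. Rgs3 turned to −0.0369 with library size alone and −0.0221 among genes over 3 times background, and leaving out 1 library gave −0.0292 to 0.26. Of the others, the 7 over 3 times background kept their sign in every alternative run.

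Replicate numbers 1 and 2 occur in both groups, with nothing to say that they pair samples. Deviations from the group mean correlated at 0.38 for number 1 and 0.56 for number 2 over 7675 genes. Those of NTC 1 and NTC 2 mirror each other by construction, so these values are not independent. Libraries with unlike numbers were not compared in this way, so the values do not show pairing. A replicate block gave 921 calls (728 higher and 193 lower), 11 genes of the further lists and 4 of the 9: Rgs1, Rgs2, Cxcr3 and Cxcr6. Cxcr4 rests on 46 to 63 counts a library and Cx3cr1 on 22 to 50, at the background level.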
